A study of Mus musculus with 23 samples.

Results

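The 9 genes followed here mark alveolar type 1 (AT1) cells and were measured across mouse lungs with and without the Rarres1 gene: Ager, Hopx, Aqp5, Pdpn, Rtkn2, Clic5, Akap5, Gprc5a and Cav1. They were taken by name from genes known to mark AT1 cells, with earlier results of these data known, and all 9 were found among the 24411 genes of the deposited tables. The lungs span late gestation, 10 months and 18 months, and lung tumours that arose in the knockout were measured beside them.

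AT1 cells are the thin, spread epithelial cells that cover most of the gas exchange surface of the lung. They lie back to back with capillary endothelium, while the cuboidal alveolar type 2 (AT2) cells make surfactant and act as progenitors for them. AT1 cells form before birth and flatten further as the alveoli are built after it. None of the 9 genes is exclusive to AT1 cells. Cav1 is also abundant in endothelium, Pdpn in lymphatic endothelium and mesothelium, Gprc5a in airway epithelium, and Aqp5 in mouse AT2 cells and glands.

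The data are bulk RNA sequencing of 23 libraries of total RNA from C57BL/6 mouse lung, in 7 groups. Wild-type (WT) lungs were taken at embryonic day 19.5 (E19.5, 3 libraries), at 10 months (3) and at 18 months (3). Lungs of Rarres1 knockout (KO) mice were taken at E19.5 (3), at 10 months (3) and, as non-tumour tissue, at 18 months (5), and 3 lung tumours came from KO mice of 18 months. The mice of 10 and 18 months were male, and no sex is given for the embryos. No mouse was treated, and all were kept in a barrier facility free of pathogens. By the codes in their labels, the animals numbered 1, 3 and 6 each gave both a tumour and a non-tumour lung library. No WT tumour was analysed here, so tumours could not be compared between genotypes. The titles number the libraries of a group as embryos or males, so each was taken as a separate animal of its group. A p-value here reflects how far those libraries scatter, which may in part be technical.

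Totals ran from 2.37e+07 to 4.66e+07 expected counts per library, and every member passed the filter on low counts in every comparison, with at least 1234 counts in each library. Rarres1, the targeted gene, had 24 to 64 counts in each of the 9 WT libraries. In 11 of the 14 KO libraries it had 0 counts, and at most 1 in the rest. WT embryo 3 stands apart by its basal and squamous cell markers, with a mean log2(CPM + 1) of 6.13 against at most 1.93 in the other embryos. Among the adult lungs without tumour, KO lungs 6 and 7 had the lowest CPM of the AT1 genes, as described with the 18-month results. Tumour 6 stands apart from tumours 1 and 3.

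The promoters of Hopx and Cav1 are shown because these were the members that passed the test between tumour and non-tumour lung. Hopx lies at chr5:77086986-77115123 on the minus strand and Cav1 at chr6:17306335-17341328 on the plus strand (GRCm38). RefSeq gives each gene more than one transcription start, and the windows below run from 250 bases before a start to 50 bases after it. The Hopx windows are chr5:77115074-77115373 and chr5:77095218-77095517 on the minus strand, and the Cav1 windows are chr6:17306085-17306384 and chr6:17307390-17307689 on the plus strand. Capitals mark a match to a searched motif.
Hopx, window 1: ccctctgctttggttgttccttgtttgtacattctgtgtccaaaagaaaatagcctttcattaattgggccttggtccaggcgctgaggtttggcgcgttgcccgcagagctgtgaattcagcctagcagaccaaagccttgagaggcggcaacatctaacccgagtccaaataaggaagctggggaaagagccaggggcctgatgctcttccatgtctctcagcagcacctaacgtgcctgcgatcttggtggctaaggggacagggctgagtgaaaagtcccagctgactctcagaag
Hopx, window 2: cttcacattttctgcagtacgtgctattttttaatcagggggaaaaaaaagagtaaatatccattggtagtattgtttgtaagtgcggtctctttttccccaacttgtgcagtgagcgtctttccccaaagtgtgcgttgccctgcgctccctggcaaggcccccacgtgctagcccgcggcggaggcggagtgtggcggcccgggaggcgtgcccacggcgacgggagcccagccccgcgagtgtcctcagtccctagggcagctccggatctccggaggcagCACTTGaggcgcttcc
Cav1, window 1: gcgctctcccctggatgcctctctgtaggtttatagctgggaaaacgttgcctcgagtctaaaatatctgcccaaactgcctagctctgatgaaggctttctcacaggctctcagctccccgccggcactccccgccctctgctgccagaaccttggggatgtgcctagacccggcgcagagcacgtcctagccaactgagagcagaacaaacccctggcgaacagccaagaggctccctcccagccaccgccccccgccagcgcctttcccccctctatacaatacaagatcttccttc
Cav1, window 2: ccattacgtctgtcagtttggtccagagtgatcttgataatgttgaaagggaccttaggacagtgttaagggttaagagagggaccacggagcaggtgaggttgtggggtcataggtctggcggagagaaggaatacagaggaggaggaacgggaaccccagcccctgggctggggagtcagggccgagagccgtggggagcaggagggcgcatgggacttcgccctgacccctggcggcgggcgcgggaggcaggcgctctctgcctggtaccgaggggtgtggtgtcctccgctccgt

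Promoter windows were found in the RefSeq table (build GRCm38.p6) for 7 of the 9 members, and 4 motifs were searched on both strands. CAAGTG, a site of the lung factor NKX2-1 that is also an E-box, was present in 1 of the 9 windows of these members, the second Hopx window, just after the start. It occurs in 13.6% of all 32851 windows of this length. AGGTCA, the half-site of retinoid receptors, was present in 2 of the 9 windows, in Pdpn and Clic5, against 16.3% of all windows. GGAATG, the site of TEAD factors, and AGATAA, which factors of the GATA family bind, were present in 0 of the 9 windows, against 14.7% and 11.2% of all windows. A match is a description of the letters, and says nothing of binding.

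Levels between genes were compared in FPKM, fragment counts scaled to the length of the gene and the size of the library. Ager stood first in every group, with 2056 ± 96.5 FPKM in WT lungs at 10 months (SD, n = 3), and its libraries did not overlap those of the next gene in any group. Ager encodes RAGE, a membrane receptor of the immunoglobulin family that AT1 cells carry at their base. In WT lungs of 10 months Hopx followed with 854 ± 11.5 FPKM, Cav1 with 619 ± 69.8 and Gprc5a with 387 ± 34.3 (SD, n = 3). Each of these 4 genes was separated from its neighbour in the order.

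Below them in the same WT lungs, Aqp5 (252 ± 17.0 FPKM) and Clic5 (249 ± 23.5) overlapped. Akap5 stood at 86.4 ± 5.75 FPKM, Pdpn at 75.7 ± 1.10 and Rtkn2, the lowest member, at 48.8 ± 1.95 (SD, n = 3 each). The order at E19.5 was different: in WT embryos Cav1 (525.6 ± 57.4 FPKM) stood above Hopx (417 ± 26.1), and Aqp5 (96.2 ± 8.40) was below Clic5 (149 ± 7.60; SD, n = 3 each). In the tumours Aqp5 was second, with 400 ± 166 FPKM (SD, n = 3), after Ager with 1156 ± 218. Below Ager, every tumour neighbour in the order overlapped the next, from Aqp5 down to Rtkn2 at 19.6 ± 13.5 FPKM.

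**Figure D1:**
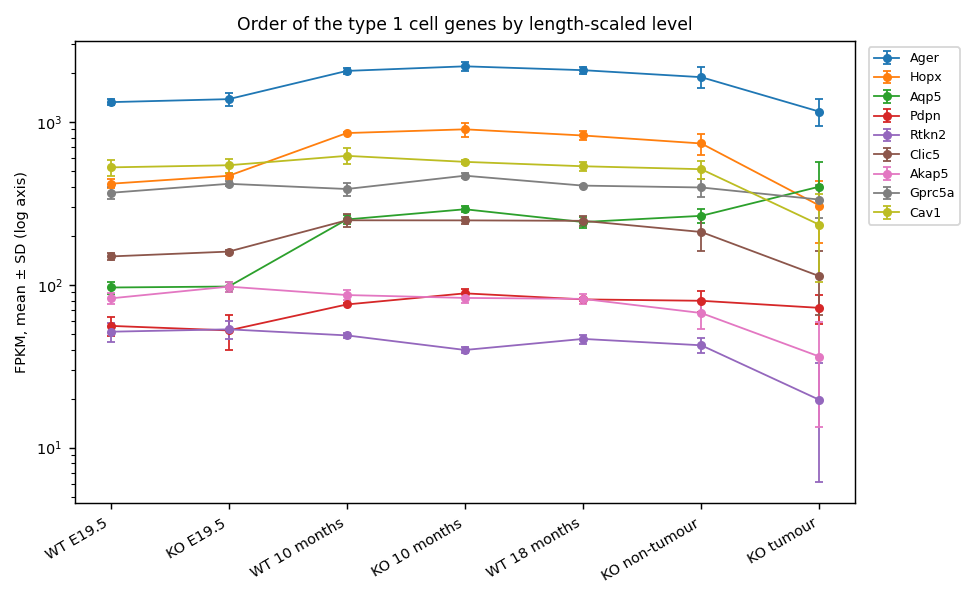
Mean FPKM (log axis) of the 9 AT1 genes in each of the 7 groups, with the SD over libraries as bars (n = 3, and 5 for KO non-tumour lung). Ager is highest in every group, Hopx passes Cav1 between E19.5 and 10 months, and Aqp5 is second in the tumours.

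All further levels are CPM (counts scaled to a common library size, with TMM factors over the 23 libraries) and compare 1 gene between groups. Fold changes are log2 values from edgeR's quasi-likelihood test with their standard error (SE), so that 1 stands for a doubling. A gene was called, or said to rise or fall, at a Benjamini-Hochberg adjusted p under 0.05 over all genes tested in that comparison.

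**Figure D2:**
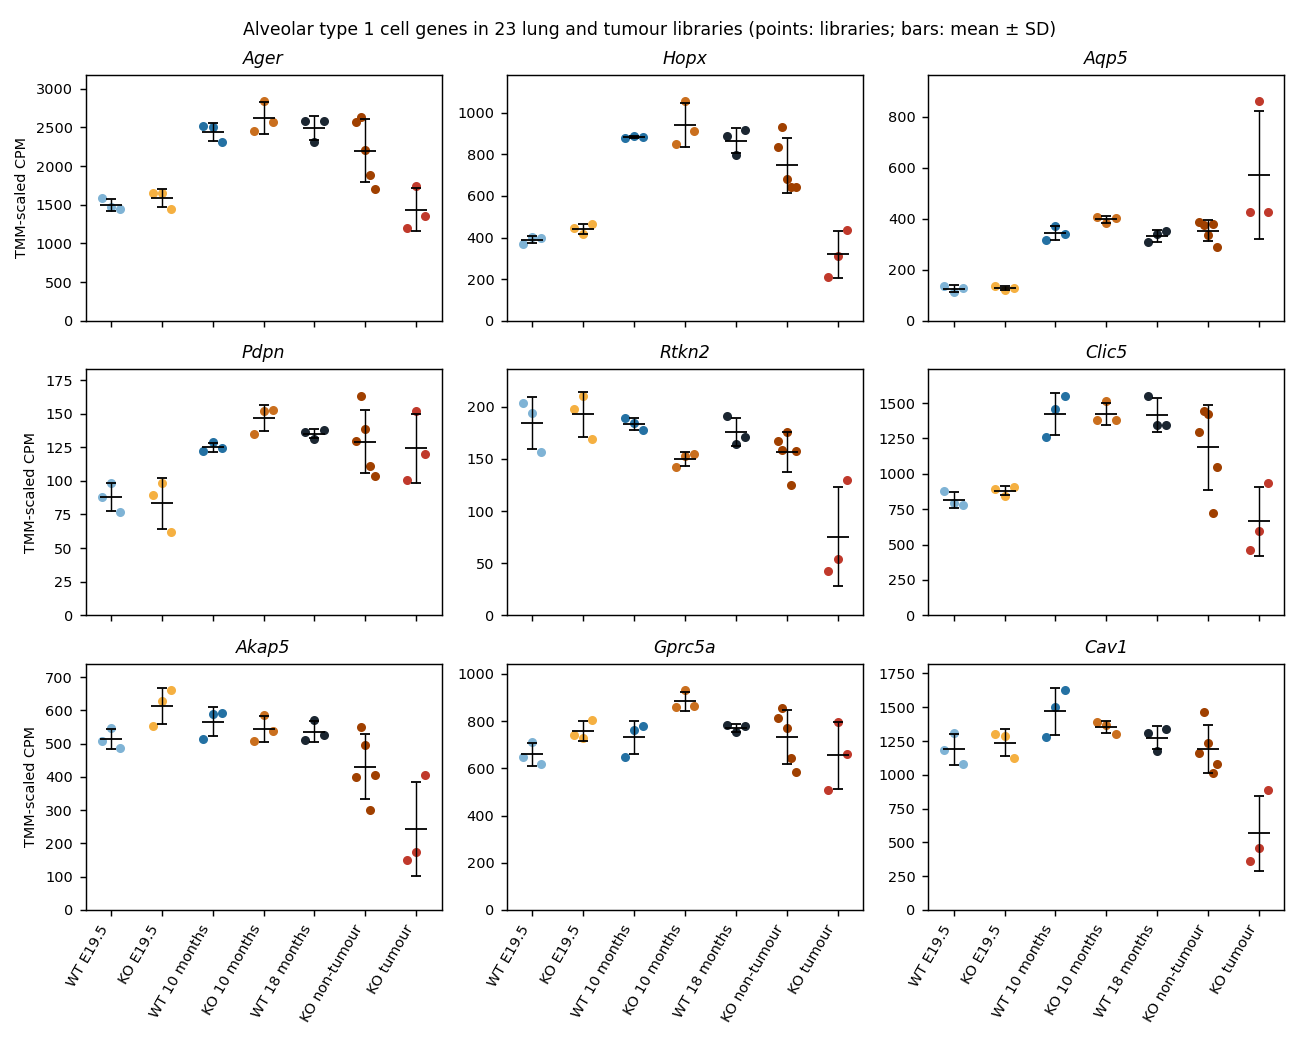
TMM-scaled CPM of each AT1 gene in every library (points) by group, with the mean and SD as bars, each axis starting at 0. The 3 tumours lie below all adult lungs for Hopx and Cav1 and above them for Aqp5, and Rtkn2 is the member whose KO libraries at 10 months lie below those of WT.

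The first comparison asks how the AT1 genes changed between late gestation and adult lung. In WT lungs 6 of the 9 members rose from E19.5 to 10 months and 0 fell. Of all 15619 genes tested 62.8% were called, 31.6% higher and 31.2% lower, so a call in itself was common. The median fold change of the members was 0.50, against 0.00 over all genes. In bulk tissue more cells of a type and more RNA per cell cannot be told apart, and neither can fewer cells and less RNA.

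Among the genes of transport and membrane structure, Aqp5, the water channel of the alveolar surface, rose most. It was at 137, 111 and 127 CPM in the 3 WT embryos and at 317, 372 and 339 CPM in the WT lungs of 10 months. The ranges were far apart, and the fold change was 1.45 ± 0.09 (SE, adjusted p = 1.57e-06). Clic5, a chloride intracellular channel protein that ties the membrane to the actin skeleton, rose by 0.79 ± 0.09 (adjusted p = 5.47e-05), from 777 to 876 CPM in embryos to 1263 to 1549 CPM.

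Cav1, the scaffold protein of caveolae, had 1186, 1306 and 1076 CPM in WT embryos and 1279, 1505 and 1626 CPM at 10 months, so the groups overlapped. It passed at 0.29 ± 0.11 (adjusted p = 0.0347). The call was lost without WT embryo 1 (adjusted p = 0.0722) or 3 (0.1002), without WT lung 2 (0.0869) or 3 (0.118) of 10 months, with total count scaling (0.0777) and with limma on FPKM (0.0798 and 0.0833 with pseudocounts of 0.1 and 1).

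Of the genes for cell surface proteins Ager and Pdpn rose in WT. Ager had 1590, 1467 and 1438 CPM in embryos and 2512, 2510 and 2311 CPM at 10 months, with no overlap (0.69 ± 0.07, adjusted p = 3.63e-05). In WT 34.8% of all genes were higher at 10 months without overlap. Pdpn, a mucin-type glycoprotein of the apical membrane, went from 77.2 to 98.1 CPM in embryos to 122 to 129 CPM (0.50 ± 0.09, adjusted p = 0.000757). Gprc5a, an orphan G protein-coupled receptor induced by retinoic acid, had 617 to 712 CPM in embryos and 649 to 779 CPM at 10 months, and did not pass (0.14 ± 0.09, adjusted p = 0.212). Without WT lung 1 of 10 months it passed (0.22, adjusted p = 0.0480).

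Of the intracellular genes Hopx, a homeodomain protein without DNA binding of its own, rose. It had 369, 403 and 399 CPM in embryos and 880, 888 and 886 CPM at 10 months. The 3 adult libraries lay within a few CPM of each other, and the fold change was 1.17 ± 0.07 (adjusted p = 8.11e-07). The kinase anchoring protein gene Akap5 (0.13 ± 0.08, adjusted p = 0.194) and Rtkn2 (−0.02 ± 0.09, adjusted p = 0.876) did not pass.

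In KO lungs 5 members rose over the same interval and 1 fell, where 60.5% of 15626 genes were called, 31.1% higher and 29.4% lower. Aqp5 rose by 1.63 ± 0.08 (SE, adjusted p = 1.29e-06), from 136, 121 and 127 CPM in the KO embryos to 406, 382 and 404 CPM at 10 months. Hopx rose by 1.08 ± 0.10, Pdpn by 0.81 ± 0.16, Ager by 0.72 ± 0.11 and Clic5 by 0.69 ± 0.09, with adjusted p-values of 4.28e-05, 0.00343, 0.000527 and 0.000241. Each of the 5 was at higher CPM in all 3 KO lungs of 10 months than in all 3 KO embryos, as was Gprc5a, which did not pass. On the higher side 35.2% of all genes were without overlap.

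Rtkn2 was the member that fell in KO lungs. It had 198, 211 and 169 CPM in KO embryos and 143, 153 and 154 CPM at 10 months, with no overlap (−0.37 ± 0.09, adjusted p = 0.00786). On the lower side 33.8% of all genes were without overlap. Gprc5a (0.22 ± 0.09, adjusted p = 0.0576), Cav1 (0.12 ± 0.10, adjusted p = 0.301) and Akap5 (−0.18 ± 0.10, adjusted p = 0.152) did not pass. Gprc5a passed without KO embryo 3 (0.26, adjusted p = 0.0199) and with DESeq2 (0.21, 0.0149), and Akap5 passed with limma on FPKM (−0.23 with either pseudocount, adjusted p = 0.0454 and 0.0461).

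Whether these changes differed between genotypes was tested as an interaction. For the members 0 of 9 passed, where 0.156% of 15994 genes did (25 genes, 1215 at an unadjusted p under 0.05, and 108 with DESeq2). Rtkn2 had the largest difference, with a change lower by 0.35 ± 0.14 in KO (interaction of −0.35, adjusted p = 0.579), followed by Pdpn at 0.31 ± 0.20 and Akap5 at −0.31 ± 0.13 (adjusted p = 0.775 and 0.600). The fall of Rtkn2 in KO and its absence from the WT calls are therefore not shown to differ.

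**Figure D3:**
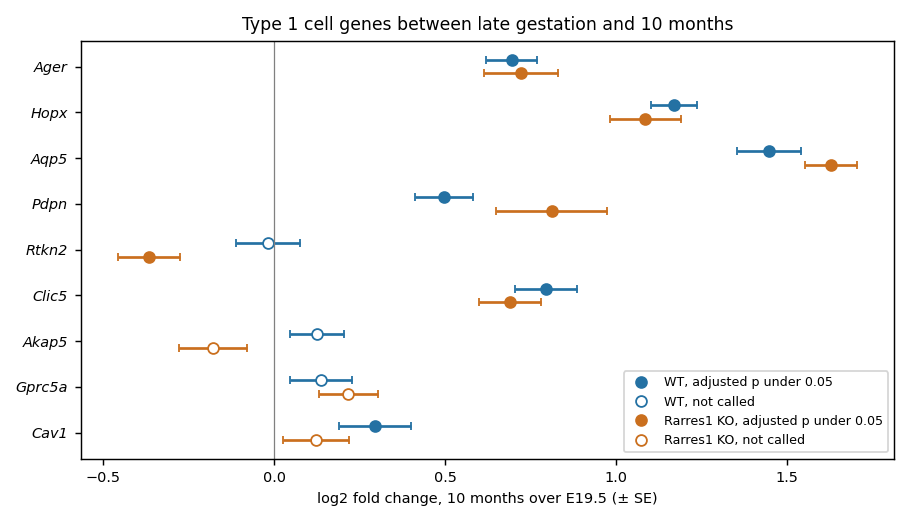
log2 fold change from E19.5 to 10 months of each AT1 gene, with SE bars, in WT (blue) and KO (orange) lungs, 3 libraries per age and genotype; filled points passed at an adjusted p under 0.05. Aqp5 and Hopx have the highest values in both genotypes, and Rtkn2 lies below 0 in KO.

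Of 15 other AT1 genes 10 rose and 2 fell in WT, and 10 rose and 1 fell in KO. Sec14l3 rose by 1.97 ± 0.09 in WT and 1.96 ± 0.11 in KO, Scnn1g, a subunit of the epithelial sodium channel, by 1.07 ± 0.08 and 0.81 ± 0.09, and the matrix gene Agrn fell (adjusted p = 9.73e-07 in WT and 8.15e-06 in KO). Of 12 AT2 genes 2 rose and 6 fell in WT, and 3 rose and 4 fell in KO. The surfactant protein gene Sftpa1 rose (1.24 ± 0.11 in WT and 1.32 ± 0.13 in KO), and Abca3, the lamellar body lipid transporter, fell (by 0.76 and 0.74).

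Of 10 genes of YAP, TAZ and TEAD signalling, known to take part in AT1 cell fate, 4 rose and 4 fell in each genotype. Tead1 rose by 0.60 ± 0.08 in both, while Tead2 fell in both (−2.02 ± 0.07 in KO, with an adjusted p of 1.63e-07 in WT and 4.49e-07 in KO). Of 8 regulators of the alveolar lineage 7 fell in each genotype, and 1 rose in WT and 0 in KO. Nkx2-1, the lung epithelial master regulator, fell by 0.94 in WT and 0.92 in KO.

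Of 8 caveola genes Cav2 (1.07 ± 0.12 in WT and 0.88 ± 0.08 in KO) and Sdpr (1.16 ± 0.10 and 1.14 ± 0.09) rose with Pacsin2, and 4 fell in WT and 1 in KO. Of 4 other aquaporin genes tested 1 rose and 2 fell in WT, and 2 rose and 2 fell in KO. Aqp1 rose in both (0.86 ± 0.10 and 0.76 ± 0.12), Aqp4 (−1.35 and −1.85) and Aqp3 (−2.86 and −2.26) fell in both, and Aqp9 rose in KO (0.79 ± 0.24). Of 4 other genes of the CLIC family 2 rose and 0 fell in each genotype, Clic4 (1.15 ± 0.07 in WT and 1.05 ± 0.08 in KO) with Clic6 in WT (0.31 ± 0.09) and Clic3 in KO (0.46 ± 0.07). Of 2 other GPRC5 genes tested Gprc5b rose (0.74 ± 0.10 in WT and 1.08 ± 0.10 in KO) and 0 fell.

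Endothelial markers moved over the same interval, with 9 of 12 rising and 1 falling in WT, and 8 rising and 2 falling in KO. Their summed level was 2903 to 3330 CPM in WT embryos and 4790 to 4920 CPM at 10 months. Mitosis genes fell (6 of 6 in each genotype), and fibroblast genes fell in 5 of 7 in each. The part of these cell types in the AT1 values was not tested.

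The next comparisons ask whether AT1 genes differed between KO and WT lungs of the same age. At E19.5 0 of the 9 members passed, as did 0% of the 15307 genes tested (144 at an unadjusted p under 0.05, and 2 with DESeq2). The members' fold changes ran from −0.08 for Pdpn to 0.25 for Akap5, with 8 of 9 above 0 and a median of 0.08, against 0.00 over all genes. Akap5 had 507, 548 and 488 CPM in WT embryos and 553, 627 and 661 CPM in KO embryos, which did not overlap (0.25 ± 0.09, adjusted p = 1.00). Hopx (0.18 ± 0.08) and Gprc5a (0.20 ± 0.09) were also higher without overlap, making 3 members of 9 where 2.72% of all genes were so. Without KO embryo 3 the range of the 9 members was 0.04 to 0.20, and without WT embryo 3 it was −0.16 to 0.22, with 6 above 0.

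At 10 months 0 of the 9 members passed, where 1.52% of 15324 genes were called (233 genes, 2670 at an unadjusted p under 0.05, and 585 with DESeq2). Rtkn2 came nearest to the threshold. It had 189.5, 184 and 178 CPM in WT lungs and 143, 153 and 154 CPM in KO lungs, with all 3 KO libraries below all 3 of WT (−0.30 ± 0.06, adjusted p = 0.0512). It passed with DESeq2 (adjusted p = 0.00109) and without the filter on low counts (0.0470), and leaving out any 1 library gave 0.0693 to 0.202.

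Gprc5a at 10 months had 649, 763 and 779 CPM in WT and 858, 930.4 and 865 CPM in KO, all KO libraries being higher (0.27 ± 0.08, adjusted p = 0.152, and 0.0365 with DESeq2). Pdpn (0.22 ± 0.07, adjusted p = 0.137) and Aqp5 (0.20 ± 0.07, adjusted p = 0.184) were also higher without overlap. That made 3 members without overlap on the higher side, where 12.2% of all genes were so, and 1 on the lower side, where 12.5% were. Ager (0.09 ± 0.08), Hopx (0.08 ± 0.09), Clic5 (−0.01 ± 0.09), Akap5 (−0.06 ± 0.08) and Cav1 (−0.13 ± 0.09) overlapped. Of 15 other AT1 genes and of 12 AT2 genes 0 passed at 10 months. In the members' families Clic3 was higher in KO (0.39 ± 0.07, adjusted p = 0.0357), and of 12 transitional genes the cell cycle inhibitor gene Cdkn1a was lower (−1.06 ± 0.10, adjusted p = 0.00226). Of the markers of other cells Dnah5 of ciliated cells (−0.39 ± 0.06, adjusted p = 0.0224) and Pdgfra of fibroblasts (−0.44 ± 0.08, adjusted p = 0.0260) were lower. Mesothelial markers were above 0 in 5 of 5 with a median of 0.52, and 0 passed. The part of these cell types in the members' values was not tested.

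At 18 months 0 of the 9 members passed between KO non-tumour and WT lung, where 0.0776% of 15463 genes did (12 genes, 1243 at an unadjusted p under 0.05, and 154 with DESeq2). The fold changes ran from −0.32 ± 0.17 for Akap5 to 0.08 ± 0.11 for Aqp5, with 8 of 9 below 0 and a median of −0.17. Every member overlapped between the groups. KO lungs 6 and 7 carried the low values: over the 14 adult lungs without tumour, 5 members were lowest in CPM in KO lung 6 and the other 4 in KO lung 7. Not all members were low in both: from the lowest, Aqp5 in lung 6 ranked 10th and Rtkn2 in lung 7 ranked 5th. By FPKM Aqp5 was lowest in WT lung 1 of 18 months (220.6 against 233.9 in lung 7). Hopx was then lowest in KO lung 3 (646 against 657 in lung 6). Among the 5 KO lungs no member's lowest or highest value was an outlier by Dixon's test at 95%, the widest gap being 0.63 of the range, for Rtkn2 in lung 6. That test takes 1 extreme value at a time, so lungs 6 and 7, where both are low, can mask each other. It cannot decide whether they stand apart. Lungs 6 and 7 also had the lowest totals of the adult libraries, 2.37e+07 and 2.42e+07 counts, followed by tumour 6 with 2.55e+07. Their TMM factors, 1.03 and 1.07, were the highest of the adult libraries. The part of library preparation in the low AT1 values of these lungs was not tested.

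Clic5 shows the spread among the KO lungs of 18 months, with 1296, 1446, 1421, 724 and 1051 CPM in lungs 1, 2, 3, 6 and 7. WT lungs had 1553, 1346 and 1349 CPM, so that lungs 6 and 7 were below all 3 and the others near or within their range. Ager was likewise lowest in lungs 7 and 6, with 2564, 2636, 2207, 1882 and 1706 CPM in KO and 2581, 2313 and 2583 CPM in WT. Without lungs 6 and 7 the median of the 9 members was −0.02, with 4 above 0, and 0 passed.

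Mesothelial markers were also low in these lungs, at 93.4 and 85.6 summed CPM in lungs 6 and 7 against 168 to 255 in the other KO lungs and 181 to 240 in WT. WT lungs of 10 months had 96.2 to 291 summed CPM of these markers. The AT1 members summed to 7727 to 8400 CPM in those WT lungs and to 5819 and 6023 CPM in KO lungs 6 and 7. AT2 markers summed to 32312 CPM in lung 6 and 19766 CPM in lung 7, the highest and the lowest of the 5. The part of mesothelium in the low AT1 values was not tested.

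Between 10 and 18 months 0 of 9 members passed in WT, as did 0% of 15321 genes (833 at an unadjusted p under 0.05, and 17 with DESeq2). The members ran from −0.21 ± 0.10 for Cav1 to 0.11 ± 0.06 for Pdpn. In KO non-tumour lung 0 of 9 passed, as did 0% of 15455 genes (782 at an unadjusted p under 0.05, and 11 with DESeq2). There 8 of 9 members were below 0, with a median of −0.26, which was −0.09 without lungs 6 and 7. The interaction of genotype with this interval gave 0 of 9 members and 0% of 15653 genes (453 at an unadjusted p under 0.05, and 1 with DESeq2). The 18-month comparisons and the tumour comparison share the KO non-tumour lungs.

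Over the 14 adult lungs the ratio of the highest to the lowest library was 1.40 for Aqp5, 1.53 for Rtkn2 and 1.65 for Hopx, and reached 2.15 for Clic5, with coefficients of variation of 10.1% to 16.7%.

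The last comparison sets KO tumours against KO non-tumour lung of 18 months. Hopx and Cav1 fell in the tumours, to less than their level in any adult lung, while Aqp5 was higher in each tumour than in any adult lung but did not pass. Of the 9 members 2 fell and 0 rose, where 13.8% of 15459 genes were called, 6.6% lower and 7.2% higher (1021 and 1113 genes, and 1447 and 814 with limma on log2(FPKM + 0.1), or 1305 and 784 with a pseudocount of 1). The members did not move together: their fold changes ran from −1.23 to 0.70, with a median of −0.83 against −0.01 over all genes.

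Hopx had 836, 933, 680.5, 642 and 644 CPM in non-tumour lungs 1, 2, 3, 6 and 7, and 209, 309.8 and 438 CPM in tumours 1, 3 and 6. All 3 tumours were below all 5 lungs (−1.23 ± 0.26, adjusted p = 0.0155), with tumour 1 lowest. Cav1 had 1161, 1467, 1235, 1012 and 1083 CPM in the lungs and 359.7, 456 and 885 CPM in the tumours, again with no overlap (−1.07 ± 0.29, adjusted p = 0.0410). Tumour 6 was nearest to the lungs for both genes. These 2 members lay below without overlap where 10.7% of all genes did.

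Both calls depend on single libraries or on the pairing. With the animal as a block, which uses that tumours and lungs 1, 3 and 6 share animals, 0 members passed: Hopx stood at −1.22 (adjusted p = 0.120) and Cav1 at −1.11 (0.163), and 146 genes were called. That fit leaves few degrees of freedom, and lungs without a tumour of the same animal add nothing to its contrast. A call lost with the block therefore does not show that a difference is absent. Hopx was lost without tumour 3 (−1.19, adjusted p = 0.0643). Cav1 was lost without tumour 1 (−0.79, adjusted p = 0.119) or tumour 3 (−0.92, 0.169), and without any 1 of the 5 non-tumour lungs (0.0567 to 0.0878).

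Rtkn2 had 167, 158, 176, 125 and 157 CPM in the lungs and 42.1, 54.0 and 130.2 CPM in the tumours, so that only tumour 6 overlapped (−1.06 ± 0.33, adjusted p = 0.0673). Clic5 had 465, 596 and 937 CPM in the tumours, where again tumour 6 overlapped the lungs (−0.84 ± 0.29, adjusted p = 0.0932). Akap5 showed the same split, with 149, 174.5 and 405 CPM in the tumours and 300.2 to 551 CPM in the lungs (−0.83 ± 0.34, adjusted p = 0.138). Ager had 1204, 1742 and 1356 CPM in the tumours, with tumour 3 inside the range of the lungs (−0.62 ± 0.22, adjusted p = 0.0903).

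Without tumour 6, Rtkn2 (−1.71, adjusted p = 0.000451), Akap5 (−1.42, 0.00309), Clic5 (−1.16, 0.0159) and Aqp5 (0.87, 0.0308) passed with Hopx and Cav1, making 6 members. Calls also became more common over all genes, with 4066 of 15670 against 2134 of 15459 on all libraries. Without both libraries of animal 6 the same 6 members passed, where 4199 of 15575 genes were called. Without tumour 1, Hopx alone passed (−0.96, adjusted p = 0.0355), the median of the 9 members was −0.53 with 3 above 0, and Rtkn2 (−0.73, 0.174), Clic5 (−0.59, 0.283) and Akap5 (−0.53, 0.380) were nearer to 0. DESeq2 called 6 members on all libraries, Ager, Hopx, Aqp5, Rtkn2, Clic5 and Cav1, where it called 3410 of 15426 genes. limma on FPKM called 4, Ager, Hopx, Rtkn2 and Cav1, and total count scaling called Ager (adjusted p = 0.0484) with Hopx and Cav1. Of 15459 genes limma called 2261 and 2089 with pseudocounts of 0.1 and 1, and total count scaling called 2041.

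Aqp5 went the other way. It had 386, 376, 335, 379 and 290.0 CPM in the lungs and 425, 862 and 428 CPM in the tumours, with no overlap (0.70 ± 0.25, adjusted p = 0.0928), as was so on the higher side for 10.3% of all genes. Tumour 3 alone was far above, and without it the fold change was 0.28. Gprc5a (−0.16 ± 0.20, adjusted p = 0.627) and Pdpn (−0.06 ± 0.18, adjusted p = 0.859) had tumours on both sides of the lungs' median: Pdpn was at 101, 152 and 119.7 CPM in tumours 1, 3 and 6 and at 103 to 163 CPM in the lungs.

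Within animals the contrast was uneven. Hopx in the tumour was 25.05%, 45.5% and 68.2% of its CPM in the non-tumour lung of animals 1, 3 and 6. Cav1 was at 31.0%, 36.9% and 87.4%, and Rtkn2 at 25.2%, 30.7% and 104%. In animals 1 and 3 Clic5 and Akap5 were between 35.2% and 42.0%, while in animal 6 they were at 129% and 135%. Aqp5 was above its lung in all 3 animals, at 110%, 257% and 113%. Animal 6 also had the lowest CPM of Hopx, Cav1, Rtkn2, Clic5 and Akap5 of the 5 non-tumour lungs, while by FPKM Hopx was lowest in lung 3.

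**Figure D4:**
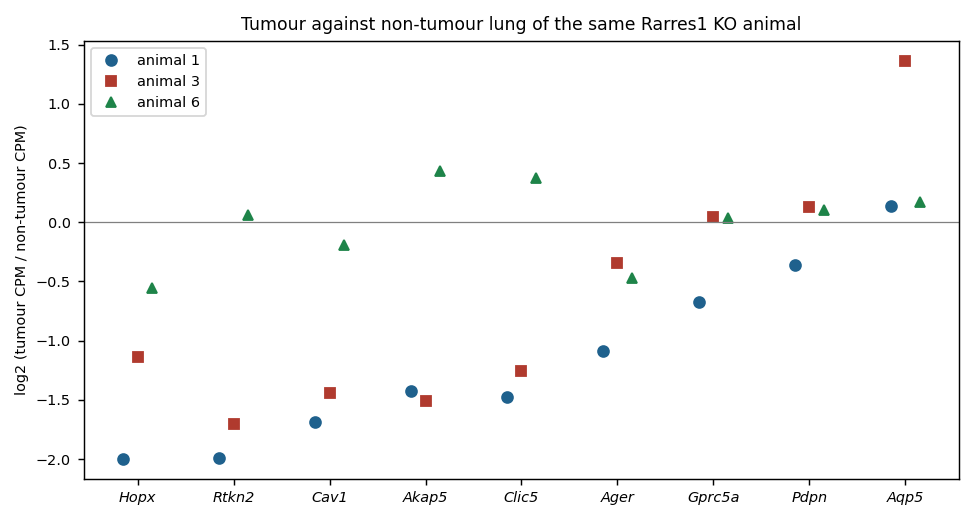
log2 ratio of tumour CPM to non-tumour CPM in the same KO animal, for animals 1, 3 and 6, with 1 point per animal and gene and no error bar. Hopx, Cav1 and Ager lie below 0 in all 3 animals, Aqp5 above 0 in all 3, and animal 6 lies nearest to 0 or above it for Rtkn2, Akap5 and Clic5.

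Other AT1 genes stood lower in the tumours as well, with 3 of 15 called lower, 0 called higher, 14 below 0 and a median of −0.62. Sec14l3 (−1.37 ± 0.27, adjusted p = 0.0113), the sodium channel subunit gene Scnn1g (−1.17 ± 0.31, adjusted p = 0.0372) and the proteoglycan gene Spock2 (−1.16 ± 0.33, adjusted p = 0.0482) fell. AT2 genes rose in 11 of 12, with a median of 1.54, among them Sftpb (2.22 ± 0.32), Muc1 (1.74 ± 0.19), the phosphate transporter gene Slc34a2 (1.68 ± 0.19) and Lpcat1 (1.63 ± 0.22). With the animal as a block 0 of the 15 other AT1 genes were called and 1 of the 12 AT2 genes, Lpcat1, with medians of −0.72 and 1.39.

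Of 12 genes that mark the transitional state between AT2 and AT1 cells 4 rose, the growth factor gene Areg (3.02 ± 0.60), Krt18 (1.18 ± 0.28), Cdkn1a (1.10 ± 0.24) and Cldn4 (1.07 ± 0.22), and 0 fell. Of 6 lineage regulators tested Cebpa (1.69 ± 0.32), Id2 (1.11 ± 0.20) and Nkx2-1 (0.79 ± 0.16) rose. Of 10 YAP, TAZ and TEAD genes 0 passed, with a median of −0.48. Of 6 genes for ligands of RAGE, S100a9 fell by 1.43 and the other 5 did not pass. With the animal as a block 0 genes of these 4 lists were called.

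Of the members' families, the caveola genes Cav2 (−0.80 ± 0.22, adjusted p = 0.0432) and Sdpr (−1.25 ± 0.35, adjusted p = 0.0432) fell with Cav1, the other 6 not passing. Clic3 fell by 0.54 in the CLIC family. Of 4 other aquaporin genes and 2 other GPRC5 genes 0 passed. With the animal as a block 0 genes of these 4 families were called.

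Markers of other cells moved with the tumours. Of 12 endothelial genes 4 fell, Cldn5, Ramp2, Egfl7 and Gpihbp1, by 0.95 to 1.25, and all 12 were below 0. Endothelial markers summed to 1567, 1664 and 4019 CPM in tumours 1, 3 and 6 and to 3881 to 5388 CPM in non-tumour lung, so tumour 6 was inside that range. AT2 markers summed to 84367, 111553 and 51311 CPM in the tumours and 19766 to 32312 CPM in the lungs. Mesothelial markers summed to 23.3 to 74.7 CPM in the tumours. Ciliated cell genes fell in 6 of 6, and smooth muscle, adipocyte and mesothelial genes in 3 of 5 each. With the animal as a block the calls were 0 of 12 endothelial, 0 of 5 mesothelial, 3 of 6 ciliated (Dynlrb2, Foxj1 and Rsph1), 2 of 5 smooth muscle (Cnn1 and Tagln) and 1 of 5 adipocyte genes (Adipoq), all lower. The part of these cell types in the AT1 values was not tested.

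**Figure D5:**
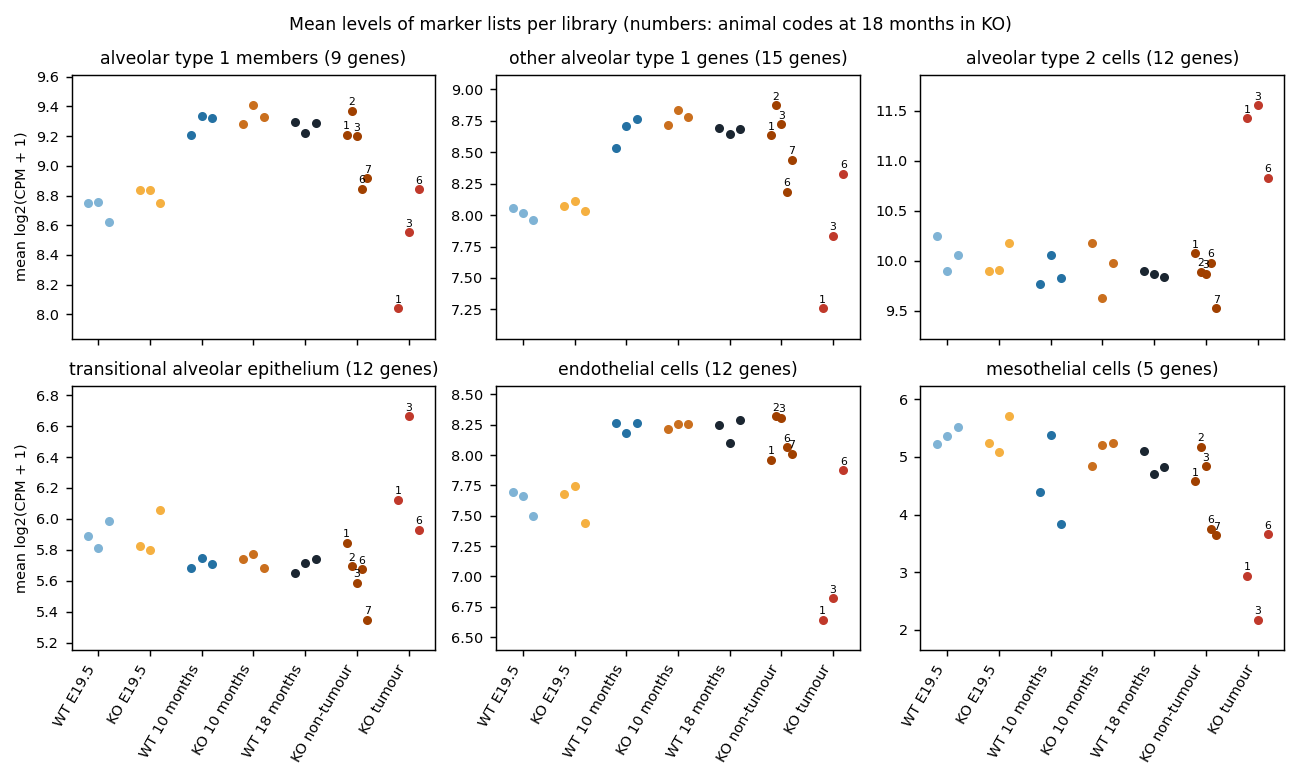
Mean log2(CPM + 1) of 6 marker lists in every library by group, with animal codes printed at the KO libraries of 18 months. The AT1 lists are lowest in tumours 1 and 3, where AT2 markers are highest and endothelial markers lowest, and KO lungs 6 and 7 lie below the other adult lungs for the AT1 members.

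Likeness was measured for 13662 genes as the mean absolute difference, in log2 over the 23 libraries, from the mean profile of the 9 members. The nearest genes that are not members were Tead1 (0.09), Mtus1 (0.09), Mpp5 (0.09), Emp2 (0.09) and Pvrl3 (0.10). Tead1 encodes a TEAD transcription factor, Emp2 a tetraspan membrane protein, Mpp5 a polarity protein and Pvrl3 a nectin. The members themselves differed in how near they lay to this mean profile, of which each is a part. Ager ranked 25th by this measure, with 0.12, Clic5 74th, Pdpn 601st, Gprc5a 688th and Cav1 1287th. Hopx ranked 3890th, Akap5 4200th, Rtkn2 5559th and Aqp5 10525th. The likeness is a description over libraries that share groups and depth.

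The annotated gene spans of 6 other members are chr17:34597460-34600937 for Ager, chr15:99591028-99594829 for Aqp5, chr4:143267409-143299564 for Pdpn, chr17:44134762-44280169 for Clic5, chr12:76324617-76334517 for Akap5 and chr6:135065662-135084709 for Gprc5a (GRCm38). The antisense gene Hopxos overlaps Hopx, and Gm15581 overlaps Cav1. The strand setting of the counting is not given in the sources used here, so reads of these antisense partners cannot be told apart from those of Hopx and Cav1.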

How the data were processed

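The 23 RNA sequencing libraries were each mapped to a group by their titles. The authors deposited expected counts per gene from RSEM 1.3.0 and FPKM values per gene, both for 24411 genes. Per the submitters' processing notes reads were treated with Trimmomatic 0.36 and STAR 2.5.2b on build mm10. All 23 columns of each table were used. The whole-genome profiles of the series were not analysed here.

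For the tests, counts were made whole by rounding. A separate model was fitted for every comparison, on the libraries of its groups, in edgeR 4.0.16 (R 4.3.3, with TMM scaling, filterByExpr, a robust quasi-likelihood test, Benjamini-Hochberg over all genes tested; prior count of 0.125 in fold changes). SEs were derived from the test. Interactions were fitted over 4 groups. Alternatives were DESeq2 1.42.0, limma 3.58.1 on log2(FPKM + 0.1 or 1), other scalings, no filter on low counts, a replicate block and leaving out each library. Leaving out KO lungs 6 and 7 together, or animal 6, was added after the data were seen. The scripts were tested on simulated counts. Of 28 pairs of libraries within groups none was a near copy (chi-square per degree of freedom 6.72 to 228).

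The pairing of tumours and lungs 1, 3 and 6 comes from their animal codes. Non-tumour lung 6 is numbered 4 in its title, and lung 7 is numbered 5. Deviations of the same animal from the group means correlated at 0.56, −0.09 and 0.01 over 10556 genes.

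The 23 gene lists, the members among them, were chosen with earlier results of these data known. All members are described. Of other lists at most 4 called genes are named, by adjusted p, and of the likeness ranking the first 5. Promoters are those of the members called between tumour and lung. Depth limits the precision of single values little, since every member had at least 1234 counts, and the number of libraries limits the tests.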

Additional observations from a re-analysis of the deposited data

How the results depend on the processing

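Across comparisons, 507 of the 540 fold changes of members recomputed under another setting kept their direction and their side of the threshold. Of the rest 19 passed anew, 7 no longer passed and 7 changed sign. Of the 486 recomputed with 1 library left out, 442 kept both, 6 passed anew, 12 no longer passed and 26 changed sign. The cause of each change was not tested.

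DESeq2 called 2 genes between KO and WT at E19.5 (also 2 with limma on log2(FPKM + 0.1)), 585 at 10 months, 154 at 18 months, 3410 between tumour and non-tumour lung, 17 and 11 between 18 and 10 months in WT and KO, and 108 and 1 for the interactions at 10 months against E19.5 and at 18 against 10 months. In WT and KO maturation it called fewer than edgeR, 9503 and 9365 against 9801 and 9454. limma called 142 and 137 genes at 10 months. Of the members DESeq2 called 2 at 10 months and 6 in the tumour comparison, where limma called 4 with either pseudocount, and the fit without the low count filter called 1 at 10 months. In KO maturation DESeq2 added Gprc5a and limma Akap5, and total count scaling added Ager in the tumours. Without KO lungs 6 and 7, 42 genes were called at 18 months, and 1259 genes and 1 member in the tumours. Without animal 6 the tumours gave 4199 genes and 6 members.

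With the replicate block the tumour comparison gave 146 genes and 0 members. In the other comparisons the labels tie libraries only by a number. Same-numbered deviations correlated at −0.04, 0.16 and 0.29 at E19.5, and not every library correlated best with its own number. Such correlations cannot settle the pairing, since they were also mixed for tumours and lungs of 1 animal code (0.56, −0.09 and 0.01). In these other comparisons the block gave 63 genes between KO and WT at 10 months and 1 between 18 and 10 months in each genotype. Of the members' calls it changed that of Cav1 in WT maturation (adjusted p = 0.0649).

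Signs changed for values near 0. Clic5 at 10 months was 0.0016 with limma at either pseudocount. At 18 months Pdpn was 0.0672 with the replicate block and 0.0791 without lungs 6 and 7, Gprc5a 0.0597 and 0.0667, and Cav1 0.0049 without those lungs. No WT lung of 18 months shares a number with lungs 6 and 7, so they add nothing to the contrast of that block. The block and the fit without these lungs are therefore not separate checks.

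With 1 library left out, 66 to 205 genes were called between KO and WT at 10 months, 3 to 26 at 18 months, 1074 to 4066 in the tumours with 0 to 6 members, and 0 to 10 between 18 and 10 months in WT. Fold changes that crossed 0 were, for KO against WT at E19.5, Aqp5 (−0.0447 to 0.10), Pdpn (−0.22 to 0.10), Rtkn2 (−0.0463 to 0.15) and Cav1 (−0.0094 to 0.13), and at 10 months Hopx (−0.0142 to 0.15) and Clic5 (−0.0838 to 0.0602). In the tumours Pdpn (−0.22 to 0.11) and Gprc5a (−0.32 to 0.0315) did so, in WT maturation Rtkn2 (−0.12 to 0.0612), and between 18 and 10 months in WT Ager (−0.0098 to 0.079), Hopx (−0.0715 to 0.0277), Aqp5 (−0.0912 to 0.0148) and Clic5 (−0.084 to 0.058).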
